A study of Homo sapiens with 16 samples.

Results

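The comparison described here is the early response of NCI-H596 cells to hepatocyte growth factor (HGF), taken as the 2 libraries labelled MET∆14 with 3 h of HGF against the 2 labelled MET∆14 without HGF. These 4 libraries were chosen by their labels alone and are 4 of the 16 libraries of the series. NCI-H596 is a lung adenosquamous carcinoma cell line. It carries MET∆14, the form of the HGF receptor that lacks the part encoded by the skipped exon. The mutated allele is described as the only one that these cells express. All cells, the 0 h controls included, had been deprived of serum for 12 h according to the labels, whereas the study's methods give a longer period. HGF was then added for 0 or 3 h, and the labels give no HGF concentration. PolyA RNA was sequenced in 2 libraries per group, which the study describes as biological duplicates. The same times were sampled in a wt MET line, labelled A549 (a lung adenocarcinoma line), and its 2 libraries at 0 h and 2 at 3 h are used only where the responses are compared. The count table spells this line H549, and EKVX is the line with wt MET that the study's text names, so that its identity rests on the label alone. Each form of MET is therefore represented by 1 cell line, so that MET∆14 and the line cannot be told apart. No untreated library was taken at 3 h, so that HGF and the time since 0 h cannot be told apart either.

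HGF is a secreted ligand that binds the receptor tyrosine kinase MET. The activated receptor recruits GRB2, SHC1 and GAB1, and through them drives the RAS and ERK kinases, the PI3K and AKT kinases and STAT3. ERK and the serum response factor SRF are known to switch on immediate early genes such as FOS and EGR1 within minutes, and the products of those genes then act on a second set of secreted factors, proteases and feedback inhibitors. AKT is known to phosphorylate FOXO transcription factors and to keep them out of the nucleus, so that FOXO target genes are transcribed less while AKT is active. The missing part of MET∆14 holds the tyrosine that the ubiquitin ligase CBL binds. The study proposes that this form has a longer half-life, with the loss of this tyrosine as a possible reason.

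Library totals at 0 h were 14089136 and 18287146 counts, and at 3 h 11828154 and 16944295 counts, within the range of the series (10158590 to 23909304). Replicates correlated across genes at 0.9927 (0 h) and 0.9914 (3 h) on the log2 CPM scale, where CPM are counts scaled by the normalized library size to a common total. Their counts differed by more than sampling noise (chi-square per degree of freedom of 3.517 and 3.365), so that no library was a copy of another. The 8 epithelial markers were all above 1 CPM, and their sum lay between 3131 and 3209 CPM at 0 h and between 3435 and 3529 CPM at 3 h. Of 10 squamous markers, 9 were above 1 CPM as a mean of the 4 libraries, DSC3 being at 0. SOX2 was at 2.347 and 2.334 CPM at 0 h but at 0.4071 and 0.3396 CPM at 3 h. The squamous markers summed to 2827 to 2911 CPM at 0 h and 2856 to 2970 CPM at 3 h, mostly through KRT5. In the test described below 3 of the 10 were called higher and 4 lower (30% and 40%, against 15.5% and 16.1% of all tested genes). Of 8 markers of lung adenocarcinoma only MUC1 exceeded 1 CPM, and NKX2-1, SFTPA1, SFTPB and SLC34A2 were at 0 in all 4 libraries. Markers of other cell types were few: fibroblast markers summed to 330.7 to 343 CPM at 0 h and 227.9 to 235.5 CPM at 3 h, with LUM at 0, through COL1A1 and COL3A1. Blood markers summed to 162.3 to 176.3 and 144.7 to 150.2 CPM through CD68 and CD14, with LYZ and HBB at 0. Endothelial and neuroendocrine markers summed to at most 2.943 CPM. The part of these marker levels in the results was not tested.

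After 3 h of HGF, 2339 of 15067 tested genes (15.5%) were higher and 2430 (16.1%) were lower in cells expressing MET∆14. Log2 fold changes are given ± SE. A gene was called at an adjusted p under 0.05 in edgeR's quasi-likelihood F test, fitted over all 16 libraries with Benjamini-Hochberg adjustment over all genes tested. Of the called genes, 520 rose and 581 fell by a log2 fold change of 1 or more. The median log2 fold change of all tested genes was -0.053, beside which the medians of the gene lists below may be read. Counts of called members in these lists may likewise be read beside the 15.5% and 16.1% of all tested genes. The lists were written with earlier results of these data known, so that their shares are a description and not a test. List counts are over members that passed the filter on low counts, which left out 1 to 3 members in each of 10 lists and none in the others. Gene counts are uncertain where exons overlap those of another gene, since strand use in the counting is not given in the sources used here. With 2 libraries a group the p-values rest on a spread shared with the other conditions. Without 1 library the number called lower came to 1322 (3 h replicate 1), 1430 (0 h replicate 1), 1498 (0 h replicate 2) or 1554 (3 h replicate 2), and with the 4 libraries alone the number called higher was 3731.

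**Figure D1:**
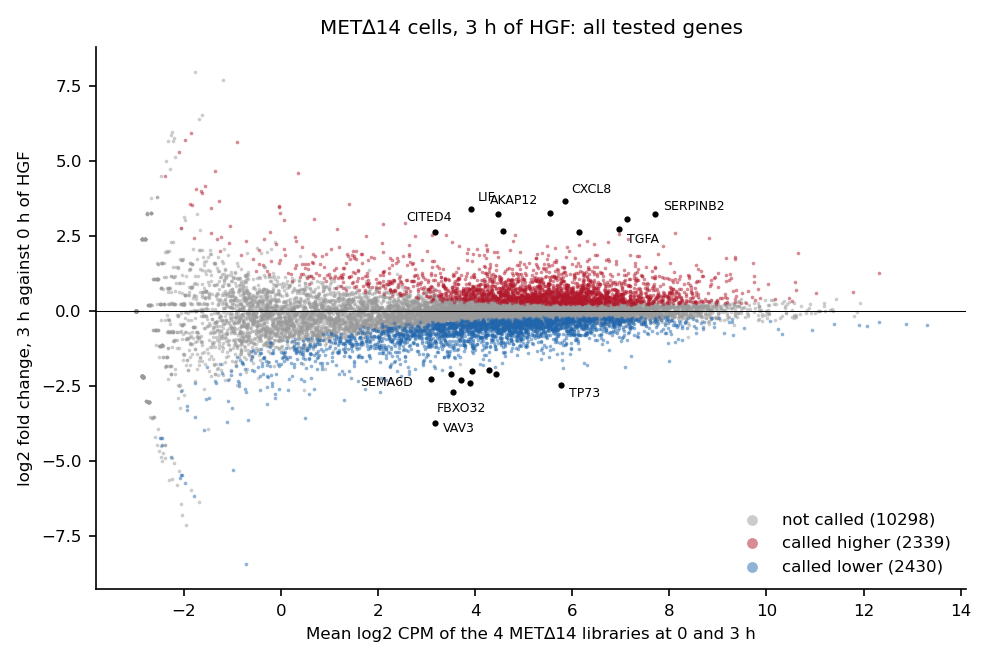
Each point is 1 of 15067 tested genes, with its mean level in the 4 MET∆14 libraries on the x axis (log2 CPM) and its log2 fold change at 3 h of HGF on the y axis. Red points are the 2339 genes called higher and blue points the 2430 called lower. Black points are the 10 largest rises and 10 largest falls named in the text, some of them labelled, which run from CXCL8 at 3.66 to VAV3 at -3.76.

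Among well measured genes the 10 largest rises included secreted signals, surface proteins and the AP-1 factor FOSL1. CXCL8 (chromosome 4, 73740519 to 73743716, hg38), the neutrophil chemokine interleukin 8, was at 15.8 and 16.8 CPM at 0 h and 231 and 180.5 CPM at 3 h, a 12.6-fold rise (log2 fold change 3.66 ± 0.24, adjusted p = 1.5e-07). LIF (chromosome 22, 30240453 to 30246759), a cytokine of the interleukin 6 family, went from 4.56 and 4.67 CPM to 49.2 and 47.3 CPM (log2 fold change 3.38 ± 0.14, adjusted p = 1.8e-09). In each of these genes both 3 h libraries lay far above both 0 h libraries, and the replicates of LIF nearly coincided. GJB2, which encodes the gap junction protein connexin 26, was at 14 and 15.7 CPM at 0 h and 157 and 131 CPM at 3 h (log2 fold change 3.27 ± 0.16, adjusted p = 5.8e-09). AKAP12, a scaffold that anchors protein kinase A, was at 6.78 and 7.7 CPM at 0 h and 73.6 and 61.4 CPM at 3 h (log2 fold change 3.21 ± 0.18, adjusted p = 1.4e-08). SERPINB2, the plasminogen activator inhibitor 2, was at 64.8 and 72.8 CPM at 0 h and 689 and 585 CPM at 3 h (log2 fold change 3.21 ± 0.24, adjusted p = 4.4e-07), but 20% of its exonic bases overlap another gene on the same strand, so that its counts are uncertain. FOSL1, a Fos-family partner of Jun proteins, was at 43.5 and 53.7 CPM at 0 h and 429 and 373 CPM at 3 h (log2 fold change 3.04 ± 0.15, adjusted p = 5.4e-09). The remaining members of the 10 largest rises were TGFA and HBEGF, ligands of the epidermal growth factor (EGF) receptor, GPAT3, an enzyme of triglyceride synthesis, and CITED4, a transcriptional cofactor. GPAT3 was at 9.39 and 9.39 CPM at 0 h and 59.4 and 60.2 CPM at 3 h, with replicates closer together than those of any other gene of the 10. CITED4 was at 2.8 and 4.32 CPM at 0 h and 24.6 and 20.8 CPM at 3 h and had the lowest 0 h and 3 h levels of them (log2 fold change 2.64 ± 0.27, adjusted p = 5e-06). In all 10 genes the 2 groups of libraries did not overlap, which the rule that chose them required.

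**Figure D2:**
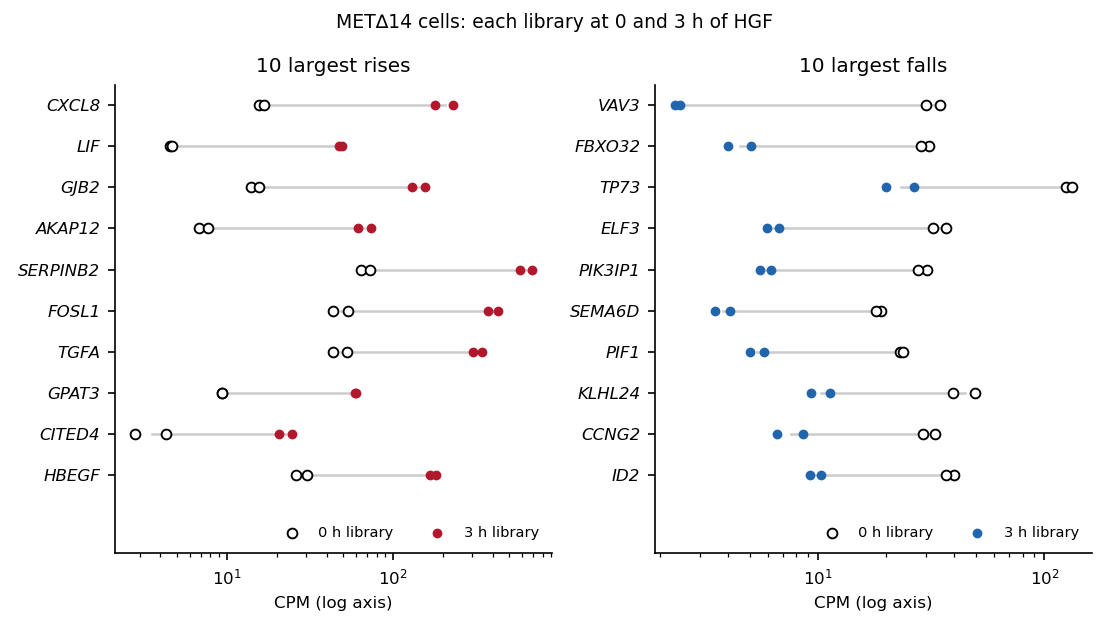
CPM of the 10 genes with the largest rise (left) and the 10 with the largest fall (right) in cells expressing MET∆14, on a log axis, with 1 open circle per 0 h library, 1 filled circle per 3 h library and a grey line between the group means. The groups were separate for every gene, which the rule that chose the genes required. For VAV3 the 0 h libraries were at 34.5 and 30.1 CPM and the 3 h libraries at 2.44 and 2.32 CPM.

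The largest falls were led by VAV3 (chromosome 1, 107571161 to 107965180, hg38), a guanine nucleotide exchange factor. It was at 34.5 and 30.1 CPM at 0 h and 2.44 and 2.32 CPM at 3 h, 13.5-fold lower after HGF (log2 fold change -3.76 ± 0.22, adjusted p = 2e-08). FBXO32, which encodes the ubiquitin ligase atrogin-1 and is a classical FOXO target, was at 31 and 28.4 CPM at 0 h and 3.99 and 5.04 CPM at 3 h (log2 fold change -2.69 ± 0.16, adjusted p = 1.6e-08). TP73, a relative of p53, was at 125 and 133 CPM at 0 h and 19.9 and 26.4 CPM at 3 h (log2 fold change -2.46 ± 0.16, adjusted p = 4e-08). ELF3, an epithelial ETS factor, was at 36.8 and 32.1 CPM at 0 h and 5.94 and 6.74 CPM at 3 h (log2 fold change -2.43 ± 0.22, adjusted p = 1.8e-06). In both genes the 3 h libraries lay far below the 0 h libraries, which adds nothing to the large falls they were named for. PIK3IP1, an inhibitor of PI3K, was at 30.1 and 27.6 CPM at 0 h and 6.19 and 5.55 CPM at 3 h (log2 fold change -2.3 ± 0.16, adjusted p = 7.1e-08). SEMA6D, a membrane semaphorin, was at 19 and 18 CPM at 0 h and 4.07 and 3.51 CPM at 3 h. PIF1, a DNA helicase, KLHL24, a substrate adaptor of a ubiquitin ligase, CCNG2, the FOXO-responsive cyclin G2, and ID2, an inhibitor of basic helix-loop-helix factors, completed the 10. For KLHL24 the 0 h libraries were at 49.5 and 39.5 CPM and the 3 h libraries at 9.28 and 11.3 CPM. For ID2 they were at 39.9 and 36.7 CPM and 10.3 and 9.23 CPM (log2 fold change -1.98 ± 0.12, adjusted p = 2.3e-08). Of these 10 genes, FBXO32, PIK3IP1, KLHL24 and CCNG2 were also on the list of FOXO factors and AKT-repressed targets, and PIF1 was on the list of mitosis genes.

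In the EGF family 6 ligands rose and no receptor did, while the ligand NRG2 and the receptors ERBB2 and ERBB3 were called lower. Of 13 tested members of the list of EGF-like ligands and ERBB receptors, 6 were called higher and 3 lower, with a median log2 fold change of -0.0353. TGFA was at 43.8 and 53.3 CPM at 0 h and 342 and 303 CPM at 3 h (log2 fold change 2.73 ± 0.13, adjusted p = 4.6e-09), and HBEGF was at 26.1 and 30.6 CPM at 0 h and 182 and 168 CPM at 3 h (log2 fold change 2.62 ± 0.12, adjusted p = 3.4e-09). EREG, which encodes epiregulin, was at 107 and 119 CPM at 0 h and 696 and 659 CPM at 3 h (log2 fold change 2.58 ± 0.093, adjusted p = 2.6e-10). NRG1, the ligand of ERBB3 and ERBB4, was at 45.8 and 50.5 CPM at 0 h and 246 and 225 CPM at 3 h (log2 fold change 2.28 ± 0.11, adjusted p = 3.4e-09). These 4 genes had 3 h levels more than 4 times those of any 0 h library, which adds nothing to the large called rises they were named for. AREG and EPGN, 2 further ligands, also rose, by log2 fold changes of 1.81 and 1.56. EGFR, the receptor most of these ligands share, was at 1998 and 1995 CPM at 0 h and 1961 and 1835 CPM at 3 h and was not called (log2 fold change -0.073, adjusted p = 0.727). AREG, EPGN and EGFR were outside the rule for named genes and were singled out after their values were seen. ERBB3, a receptor that is itself repressed while AKT is active, fell from 14.3 and 12 CPM to 3.01 and 3.68 CPM (log2 fold change -1.96 ± 0.26, adjusted p = 3.4e-05). The number of lower calls on this list was 1 to 2 when any of the 4 libraries was left out.

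Cytokines and chemokines formed another group with many rises: 19 of 38 tested members were called higher and 2 lower (1 without any 1 of the 4 libraries), with a median log2 fold change of 0.64. Beside CXCL8 and LIF, IL1B was at 30.05 and 35.2 CPM at 0 h and 153 and 148 CPM at 3 h (log2 fold change 2.2 ± 0.15, adjusted p = 4.4e-07). IL1A was at 12.8 and 13.3 CPM at 0 h and 57.3 and 49 CPM at 3 h (log2 fold change 2.02 ± 0.15, adjusted p = 1e-07). Both encode interleukin 1, which signals to NF-kappaB. IL6 was at 7.17 and 7.9 CPM at 0 h and 19.7 and 16 CPM at 3 h (log2 fold change 1.24 ± 0.22, adjusted p = 0.00046), a low level in every library. TNFSF10, which encodes the death ligand TRAIL, went the other way, from 168 and 127 CPM to 44.2 and 40.5 CPM (log2 fold change -1.8 ± 0.23, adjusted p = 0.00018). Among NF-kappaB subunits and feedback genes, 9 of 23 were called higher and 2 lower (median 0.20). TNFAIP3, which encodes the feedback inhibitor A20, was at 35.1 and 37.7 CPM at 0 h and 126 and 118 CPM at 3 h (log2 fold change 1.74 ± 0.18, adjusted p = 6.5e-06). NFKBIE, an inhibitory subunit, rose from 7.76 and 7.45 to 21.1 and 19.8 CPM, and RELB, a subunit of the alternative pathway, from 14.6 and 13.7 to 31.4 and 30.8 CPM. TRAF1, an adaptor of TNF receptors, fell from 17.3 and 17.8 to 6.35 and 6.34 CPM (log2 fold change -1.47 ± 0.18, adjusted p = 1.8e-05). REL, another subunit, was at 45 and 44.4 CPM at 0 h and 21.9 and 17.8 CPM at 3 h (log2 fold change -1.18, adjusted p = 0.0002), with 33.3% of its exonic bases shared with a gene on the same strand.

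The AP-1 and EGR factors did not move as 1 group. Of 15 tested members, 8 were called higher and 2 lower (1 without any 1 of the 4 libraries), with a median log2 fold change of 0.49. FOSL1, EGR3 and MAFF rose most among members whose mean log2 CPM reached 1. MAFF, a small Maf protein, was at 25.7 and 22.8 CPM at 0 h and 107 and 99.8 CPM at 3 h (log2 fold change 2.1 ± 0.15, adjusted p = 9.4e-08). EGR3, a relative of EGR1, rose from 1.96 and 1.79 to 9.69 and 8.09 CPM (log2 fold change 2.24 ± 0.21, adjusted p = 1.4e-06) and FOSB from 20.7 and 20.8 to 41.6 and 40.6 CPM (log2 fold change 0.99 ± 0.19, adjusted p = 0.00114). The classical heads of the group stood elsewhere. FOS was at 36.2 and 34.3 CPM at 0 h and 30.9 and 29.4 CPM at 3 h (log2 fold change -0.22, adjusted p = 0.192), JUN at 149 and 162 CPM at 0 h and 174 and 159.6 CPM at 3 h (log2 fold change 0.1, adjusted p = 0.457) and JUNB at 224 and 239 CPM at 0 h and 258 and 237 CPM at 3 h (log2 fold change 0.10, adjusted p = 0.567). None of the 3 was called at 3 h. EGR1 was lower, at 212 and 228 CPM at 0 h and 128 and 115 CPM at 3 h (log2 fold change -0.86 ± 0.22, adjusted p = 0.00949), although its call was lost without 0 h replicate 2 (-0.81, adjusted p = 0.0531) and without 3 h replicate 2 (-0.79, adjusted p = 0.0687). No library was taken before 3 h, so that a rise and fall of these genes within that time was not measured.

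Other early response genes were called higher in 17 of 34 cases and lower in 6 (median 0.24). SOX9, a developmental transcription factor, was at 19.2 and 22 CPM at 0 h and 74.5 and 66.7 CPM at 3 h (log2 fold change 1.77 ± 0.11, adjusted p = 2.1e-08). PHLDA2, a lipid-binding protein, was at 55 and 61.5 CPM at 0 h and 206 and 179.6 CPM at 3 h and ZFP36L1, which destabilizes messenger RNA, at 215 and 230.4 CPM at 0 h and 698 and 571 CPM at 3 h. MCL1, a survival protein of the BCL2 family, was at 552 and 590.0 CPM at 0 h and 1254 and 1308 CPM at 3 h (log2 fold change 1.17 ± 0.10, adjusted p = 3.5e-07). HES1, a Notch target and repressor, fell from 35.5 and 40.7 to 26.5 and 23.7 CPM (log2 fold change -0.61 ± 0.12, adjusted p = 0.00113), and BHLHE40, a repressor of clock genes, from 179 and 183 to 121 and 126 CPM (log2 fold change -0.55 ± 0.094, adjusted p = 0.00039). Among ETS factors and ERK outputs, 11 of 22 were called higher and 4 lower (median 0.30). ETS1 was at 33 and 36.9 CPM at 0 h and 185 and 168 CPM at 3 h (log2 fold change 2.34 ± 0.12, adjusted p = 6.3e-09). SLC20A1, a phosphate transporter, was at 104 and 121 CPM at 0 h and 430.3 and 404 CPM at 3 h (log2 fold change 1.89 ± 0.11, adjusted p = 1.4e-08). MAP2K3, the kinase above p38, was at 46.4 and 49.1 CPM at 0 h and 180.3 and 165 CPM at 3 h (log2 fold change 1.85 ± 0.11, adjusted p = 1.6e-08). ETS2 and ELF1 were lower, with 3 h libraries at 241 and 229.8 CPM against 329.8 and 326 CPM for ETS2 (log2 fold change -0.48 ± 0.078, adjusted p = 0.00024). Members of the ETS family thus changed in both directions.

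Feedback inhibitors of the receptor and of MAP kinases were mostly higher. Of 35 tested members, 19 were called higher and 3 lower, with a median log2 fold change of 0.57. SPRY4, a Sprouty protein that restrains RAS, was at 9.58 and 13.7 CPM at 0 h and 67.3 and 69.4 CPM at 3 h (log2 fold change 2.54 ± 0.15, adjusted p = 1.6e-08). SH2B3, an adaptor that restrains kinase signalling, was at 10.2 and 10.9 CPM at 0 h and 42 and 40.7 CPM at 3 h (log2 fold change 1.97 ± 0.14, adjusted p = 1e-07). DUSP6 and DUSP7 encode phosphatases that inactivate ERK. DUSP6 was at 30.8 and 33 CPM at 0 h and 72.2 and 67.9 CPM at 3 h (log2 fold change 1.13 ± 0.089, adjusted p = 2.3e-07). DUSP7 was at 83 and 98.8 CPM at 0 h and 282 and 259.6 CPM at 3 h (log2 fold change 1.57 ± 0.095, adjusted p = 2.1e-08), with 28.6% of the exonic bases of DUSP6 overlapped by a gene on the opposite strand. SPRED3 rose from 2.8 and 3.08 to 7.65 and 9.79 CPM (log2 fold change 1.57 ± 0.2, adjusted p = 2.8e-05). LRIG3 was lower, at 41.4 and 46.1 CPM at 0 h and 18.9 and 18.4 CPM at 3 h (log2 fold change -1.23 ± 0.12, adjusted p = 1.7e-06), as was CBLB, a ubiquitin ligase of the CBL family, at 28.2 and 28.3 CPM at 0 h and 15.3 and 13.8 CPM at 3 h (log2 fold change -0.96 ± 0.12, adjusted p = 3.1e-05).

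MET was at 369.5 and 370.3 CPM at 0 h and 437 and 405 CPM at 3 h, with a log2 fold change of 0.19 (SE 0.087) that was not called (adjusted p = 0.12). DESeq2's Wald test gave 0.20 and an adjusted p of 0.0223, and edgeR with the 4 libraries alone gave 0.24 and 0.00378. HGF and HPN, a protease that activates HGF, had too few counts to be tested. Of 30 tested members of the list of the MET receptor complex and HGF activation, 5 were called higher and 5 lower (16.7% each, near the 15.5% and 16.1% of all tested genes), and 3 higher and 2 to 3 lower when any of the 4 libraries was left out. CRK, an adaptor, was at 85.1 and 81.3 CPM at 0 h and 131 and 138 CPM at 3 h (log2 fold change 0.7 ± 0.072, adjusted p = 3.3e-06). GAB1, the large docking protein of MET, was at 18.2 and 16.9 CPM at 0 h and 7.57 and 8.66 CPM at 3 h (log2 fold change -1.1 ± 0.19, adjusted p = 0.00047). SOS1, the exchange factor of RAS, was at 56.7 and 59.1 CPM at 0 h and 35.7 and 36.7 CPM at 3 h (log2 fold change -0.68 ± 0.12, adjusted p = 0.0004). GAB1 and SOS1 were thus lower in both 3 h libraries than in either 0 h library, which adds nothing to the called falls they were named for.

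The urokinase system and serpins, which control proteolysis at the cell surface, were called higher in 12 of 18 cases and lower in 1 (a call lost without any 1 of the 4 libraries), with a median log2 fold change of 1.01. F3, the tissue factor that starts coagulation, was at 176 and 214 CPM at 0 h and 1100.0 and 1017 CPM at 3 h (log2 fold change 2.44 ± 0.12, adjusted p = 4.6e-09). PLAUR, the urokinase receptor, was at 55.7 and 54.5 CPM at 0 h and 153 and 148 CPM at 3 h (log2 fold change 1.45 ± 0.079, adjusted p = 1e-08). PLAU, urokinase, was at 270.2 and 265 CPM at 0 h and 552 and 517 CPM at 3 h (log2 fold change 0.997 ± 0.10, adjusted p = 2.2e-06). The protease and its receptor were thus both higher in the 3 h libraries, with 31.0% of the exonic bases of PLAU overlapped by a gene on the opposite strand. Matrix proteases and their inhibitors were called higher in 3 of 27 cases (11.1%, below the 15.5% of all tested genes) and lower in 1 (3.7%, against 16.1%). The lower call was lost without any 1 of the 4 libraries. ADAMTS1 rose from 70.6 and 79 to 169 and 167 CPM (log2 fold change 1.17 ± 0.12, adjusted p = 3e-06). MMP1, interstitial collagenase, was at 2.15 and 3.13 CPM at 0 h and 3.09 and 3.62 CPM at 3 h and was not called (log2 fold change 0.34, adjusted p = 0.56). TIMP3, an inhibitor of these proteases, was at 191 and 169.8 CPM at 0 h and 191 and 169 CPM at 3 h (log2 fold change -0.00081, adjusted p = 1).

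Adhesion genes were called higher in 6 of 34 cases (17.6%, near the 15.5% of all tested genes) and lower in 1 (2.94%, against 16.1%). SDC4, a syndecan at focal adhesions, was at 356 and 347 CPM at 0 h and 1247 and 1180.3 CPM at 3 h (log2 fold change 1.79 ± 0.12, adjusted p = 4.7e-08). THBS1, the matrix protein thrombospondin 1, was at 287 and 339 CPM at 0 h and 1123 and 995 CPM at 3 h (log2 fold change 1.76 ± 0.14, adjusted p = 4.1e-07). ITGA2, a collagen-binding integrin, was at 157 and 165 CPM at 0 h and 357 and 336 CPM at 3 h (log2 fold change 1.1 ± 0.11, adjusted p = 2.8e-06). Epithelial junction and keratin genes were called higher in 17 of 45 cases and lower in 8, but without any 1 of the 4 libraries only 8 to 11 were higher and 5 to 6 lower. GJB2 was among the rises described above. KRT17, a keratin of activated epithelium, was at 7.17 and 8.84 CPM at 0 h and 35.4 and 24.7 CPM at 3 h (log2 fold change 1.89 ± 0.32, adjusted p = 0.00057). KRT15, a basal keratin, fell from 98.2 and 83.9 to 43.8 and 43.1 CPM (log2 fold change -1.07 ± 0.18, adjusted p = 0.00031) and DSG3, a desmosomal cadherin, from 138 and 127 to 86.9 and 76.7 CPM (log2 fold change -0.7 ± 0.14, adjusted p = 0.00123). CDH1, which encodes E-cadherin, was at 109.6 and 98.2 CPM at 0 h and 102 and 101 CPM at 3 h (log2 fold change -0.036, adjusted p = 0.915). Of 26 tested EMT factors and mesenchymal genes, 3 were called higher and 1 lower, a share near or below the 15.5% and 16.1% of all genes. Apart from AKAP12 these were ZEB1, a repressor of epithelial genes, at 18.6 and 17.2 CPM at 0 h and 27.9 and 31.5 CPM at 3 h (log2 fold change 0.74 ± 0.13, adjusted p = 0.00052), NT5E (log2 fold change 0.46), and SMAD7, the feedback inhibitor of TGF-beta, which fell from 9.84 and 8.69 to 4.32 and 4.64 CPM (log2 fold change -1.04 ± 0.16, adjusted p = 0.00014).

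Genes of SRF, YAP and the actin cytoskeleton were called higher in 31 of 45 cases and lower in 3 (1 to 2 without any 1 of the 4 libraries), with a median log2 fold change of 0.67. SRF is known to bind the CArG box in the promoters of actin genes. In the RefSeq promoters (GRCh38.p14, first listed start of each gene, 250 bases before it) a CArG box was found for 6 of the 37 members with a promoter (16.2%), against 312 of all 27305 promoters (1.14%). All motifs were searched on both strands, and none of them contains another. The promoters of 3 of these genes are shown with the CArG box in capitals, chosen after their values were seen, because their genes rose and they show where the box lies. They are at chr17:81512800-81513049, minus strand, at chr2:105438514-105438763, minus strand and at chr6:43171019-43171268, plus strand.
ACTG1: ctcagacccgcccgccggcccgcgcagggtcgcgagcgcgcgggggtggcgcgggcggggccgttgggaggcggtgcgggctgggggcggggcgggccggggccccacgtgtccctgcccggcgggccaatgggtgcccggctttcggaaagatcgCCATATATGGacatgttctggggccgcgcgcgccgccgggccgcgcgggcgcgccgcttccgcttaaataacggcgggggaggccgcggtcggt
FHL2: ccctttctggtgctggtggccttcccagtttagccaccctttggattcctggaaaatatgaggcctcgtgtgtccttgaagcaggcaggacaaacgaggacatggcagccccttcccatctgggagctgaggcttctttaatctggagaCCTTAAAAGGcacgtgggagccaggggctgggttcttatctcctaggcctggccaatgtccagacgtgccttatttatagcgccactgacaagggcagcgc
SRF: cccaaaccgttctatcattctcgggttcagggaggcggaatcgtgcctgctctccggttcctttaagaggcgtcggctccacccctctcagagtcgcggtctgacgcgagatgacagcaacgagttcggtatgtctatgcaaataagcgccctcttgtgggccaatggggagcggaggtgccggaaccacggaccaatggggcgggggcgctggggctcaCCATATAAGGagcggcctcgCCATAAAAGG
The box lay 94 bases upstream of the start in ACTG1 and 101 in FHL2. The promoter of SRF holds 2 boxes, of which the one farther from the start lay 30 bases upstream. ACTG1, the cytoplasmic gamma actin, was at 750.3 and 916 CPM at 0 h and 3372 and 2940.0 CPM at 3 h (log2 fold change 1.92 ± 0.15, adjusted p = 1.8e-07). FHL2, a LIM-domain cofactor, was at 66.8 and 68.9 CPM at 0 h and 219 and 206 CPM at 3 h (log2 fold change 1.65 ± 0.083, adjusted p = 5.4e-09). SRF itself was at 48.5 and 49.8 CPM at 0 h and 115 and 119 CPM at 3 h (log2 fold change 1.25 ± 0.08, adjusted p = 4e-08). All 3 genes had both 3 h libraries above both 0 h libraries, which adds nothing to the called rises they were chosen for. MICAL2, which oxidizes actin and thereby favours SRF activity, was at 46.9 and 55.8 CPM at 0 h and 321 and 282 CPM at 3 h (log2 fold change 2.55 ± 0.11, adjusted p = 2.1e-09), the largest rise of the list. CCN2, a YAP target that encodes a matrix protein, was at 36.6 and 43.9 CPM at 0 h and 123 and 106 CPM at 3 h (log2 fold change 1.5 ± 0.16, adjusted p = 6.6e-06). TNS3, a tensin at adhesions, was lower, at 463 and 452 CPM at 0 h and 303 and 305 CPM at 3 h (log2 fold change -0.59 ± 0.14, adjusted p = 0.00431). A match of letters in these windows is a description and not evidence of binding, and the same holds for the motifs below.

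Among the 10 largest rises, the promoters of CXCL8 and AKAP12 are shown, chosen after their values were seen, since they hold an AP-1 site and a CArG box. They lie at chr4:73740319-73740568, plus strand and at chr6:151239717-151239966, plus strand. The capitals mark the AP-1 site TGACTCA in CXCL8, 137 bases upstream of the start, and a CArG box in AKAP12, 81 bases upstream. TGACTCA was found in 1136 of all 27305 promoters (4.16%). No other of these rises with a promoter held it, while VAV3 and KLHL24 among the 10 largest falls did, so that it does not mark the rises.
CXCL8: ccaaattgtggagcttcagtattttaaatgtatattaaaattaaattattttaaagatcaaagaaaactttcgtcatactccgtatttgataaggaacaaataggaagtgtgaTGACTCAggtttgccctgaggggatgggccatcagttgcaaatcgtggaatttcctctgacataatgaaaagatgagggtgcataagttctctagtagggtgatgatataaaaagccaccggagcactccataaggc
AKAP12: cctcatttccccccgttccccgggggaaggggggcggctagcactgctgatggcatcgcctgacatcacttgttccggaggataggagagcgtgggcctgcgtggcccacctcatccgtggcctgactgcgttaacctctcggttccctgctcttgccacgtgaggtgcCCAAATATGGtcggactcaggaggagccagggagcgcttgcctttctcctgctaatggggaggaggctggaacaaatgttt

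Genes known to be held down by AKT through FOXO were mostly lower. Of 41 tested FOXO factors and AKT-repressed targets, 33 were called lower and 2 higher, with a median log2 fold change of -0.70. The number lower was 23 to 27 and the number higher 1 to 2 when any of the 4 libraries was left out. Beside FBXO32 and PIK3IP1, KLF9, a Krueppel-like repressor, was at 14.1 and 11.1 CPM at 0 h and 3.18 and 2.72 CPM at 3 h (log2 fold change -2.1 ± 0.19, adjusted p = 7.9e-07). CDKN1B, which encodes the cell cycle inhibitor p27, was at 25 and 21.8 CPM at 0 h and 12.8 and 12.6 CPM at 3 h (log2 fold change -0.88 ± 0.10, adjusted p = 8.8e-06). TP53INP1, a stress protein that promotes autophagy, was at 34.4 and 32 CPM at 0 h and 9.61 and 9.4 CPM at 3 h (log2 fold change -1.8 ± 0.11, adjusted p = 3.7e-08). In each of these genes the 3 h libraries were below the 0 h libraries with no overlap, which adds nothing to the called falls they were named for. TXNIP, an inhibitor of thioredoxin and of glucose uptake, was at 537 and 470.5 CPM at 0 h and 359 and 327 CPM at 3 h (log2 fold change -0.55 ± 0.15, adjusted p = 0.0109), and its call was lost without 0 h replicate 1 (-0.46, adjusted p = 0.1) and without 3 h replicate 2 (-0.49, adjusted p = 0.0906). IRS1, the docking protein of the insulin receptor, was the exception with the largest rise, at 43.7 and 45.9 CPM at 0 h and 79.2 and 82.8 CPM at 3 h (log2 fold change 0.85 ± 0.10, adjusted p = 1.1e-05). The FOXO site GTAAACA was found in 5 of the 37 members with a promoter (13.5%), against 813 of all 27305 promoters (2.98%). The promoters of 3 genes that fell are shown with this site in capitals, also chosen after values were seen, and lie at chr10:44978810-44979059, minus strand, at chr7:107168753-107169002, plus strand and at chr1:145996580-145996829, minus strand.
DEPP1: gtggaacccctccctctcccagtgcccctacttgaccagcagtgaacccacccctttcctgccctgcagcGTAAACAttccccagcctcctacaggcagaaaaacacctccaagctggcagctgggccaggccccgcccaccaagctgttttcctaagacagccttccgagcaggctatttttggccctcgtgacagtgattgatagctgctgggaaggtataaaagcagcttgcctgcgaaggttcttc
HBP1: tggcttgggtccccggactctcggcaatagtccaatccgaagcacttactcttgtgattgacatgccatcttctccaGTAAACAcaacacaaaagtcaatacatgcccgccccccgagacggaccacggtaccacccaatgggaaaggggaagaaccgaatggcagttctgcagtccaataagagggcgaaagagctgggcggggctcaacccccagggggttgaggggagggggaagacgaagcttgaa
TXNIP: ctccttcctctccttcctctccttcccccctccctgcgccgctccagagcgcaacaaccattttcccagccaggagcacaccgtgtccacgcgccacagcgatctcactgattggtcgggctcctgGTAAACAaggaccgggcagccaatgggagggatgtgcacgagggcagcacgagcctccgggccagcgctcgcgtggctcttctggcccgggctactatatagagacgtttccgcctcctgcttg
The site lay 180 bases upstream of the start in DEPP1, 173 in HBP1 and 124 in TXNIP. DEPP1, a FOXO-induced regulator of autophagy, was at 2.61 and 1.94 CPM at 0 h and 1.06 and 0.679 CPM at 3 h (log2 fold change -1.41 ± 0.37, adjusted p = 0.00951). HBP1, a repressor of cell cycle genes, was at 58.9 and 53.2 CPM at 0 h and 27.8 and 26.5 CPM at 3 h (log2 fold change -1.05 ± 0.10, adjusted p = 1.5e-06). Both were named for these promoters, as was SRF above, and 23.3% of the exonic bases of DEPP1 are overlapped by a gene on the opposite strand.

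Genes of mitosis fell almost without exception. Of 54 tested members, 51 were called lower and 0 higher, with a median log2 fold change of -0.94, and 47 to 49 were lower when any of the 4 libraries was left out. At an unadjusted p under 0.05 edgeR gave 0 higher and 52 lower, and DESeq2 called 0 higher and 50 lower. PIF1 fell most, from 23 and 23.8 to 4.97 and 5.77 CPM (log2 fold change -2.11 ± 0.25, adjusted p = 1.6e-05). ASPM (chromosome 1, 197084121 to 197146694, hg38), a protein of the spindle poles, was at 259 and 266 CPM at 0 h and 63.8 and 77.6 CPM at 3 h (log2 fold change -1.89 ± 0.15, adjusted p = 3.2e-07). TTK, the kinase of the spindle checkpoint, was at 43.3 and 43.2 CPM at 0 h and 12.3 and 13.2 CPM at 3 h (log2 fold change -1.76 ± 0.12, adjusted p = 8.8e-08). CENPF, a kinetochore protein, was at 447 and 468 CPM at 0 h and 128 and 154 CPM at 3 h (log2 fold change -1.69 ± 0.18, adjusted p = 6.9e-06). PLK1, the mitotic Polo-like kinase, was at 126 and 139.9 CPM at 0 h and 65.1 and 75.5 CPM at 3 h (log2 fold change -0.92 ± 0.12, adjusted p = 3.3e-05). In all 5 genes both 3 h libraries lay below both 0 h libraries, with PLK1 the nearest to its 0 h level. This adds nothing to their calls, since all but PLK1 were named for a large called fall. In bulk RNA, fewer cells in mitosis and less RNA per cell cannot be told apart. The cell cycle element CHR, TTTGAA, is known as the site of the DREAM complex in such promoters. It was found in 26 of the 46 members with a promoter (56.5%), against 3704 of all 27305 promoters (13.6%). The promoters of the 2 members that fell most are shown with this element in capitals (TTCAAA where it lies on the other strand), at chr15:64825648-64825897, minus strand and at chr1:197146670-197146919, minus strand.
PIF1: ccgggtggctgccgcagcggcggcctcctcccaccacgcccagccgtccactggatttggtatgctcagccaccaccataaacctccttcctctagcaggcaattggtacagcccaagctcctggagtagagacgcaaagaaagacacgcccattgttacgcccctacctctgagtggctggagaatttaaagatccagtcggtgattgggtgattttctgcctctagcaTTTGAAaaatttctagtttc
ASPM: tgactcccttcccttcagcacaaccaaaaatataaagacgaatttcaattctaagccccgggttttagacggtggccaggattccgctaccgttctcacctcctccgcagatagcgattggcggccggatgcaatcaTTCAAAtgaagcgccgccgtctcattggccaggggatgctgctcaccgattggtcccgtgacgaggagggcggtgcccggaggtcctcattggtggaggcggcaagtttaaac
The element lay 20 bases upstream of the start in PIF1 and 113 bases upstream in ASPM.

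Genes of DNA replication were called lower in 15 of 34 cases and higher in 0, with a median of -0.27. At an unadjusted p under 0.05 there were 21 lower and 1 higher in edgeR, and DESeq2 called 10 lower and 0 higher. The edgeR count depended on single libraries: 8 were lower without 0 h replicate 1, 3 without 0 h replicate 2, 3 without 3 h replicate 1 and 7 without 3 h replicate 2. ORC1, a subunit of the origin recognition complex, was at 12.5 and 13.7 CPM at 0 h and 6.6 and 7.58 CPM at 3 h (log2 fold change -0.88 ± 0.15, adjusted p = 0.00038). RFC4, of the clamp loader, was at 58.8 and 60.9 CPM at 0 h and 39.7 and 43.6 CPM at 3 h (log2 fold change -0.52 ± 0.11, adjusted p = 0.00278). Regulators of G1 went both ways, with 8 of 26 called higher (30.8%, against 15.5% of all tested genes) and 7 lower (26.9%, against 16.1%). CCND1, the cyclin D1 that growth factors induce, was at 256 and 288 CPM at 0 h and 641 and 585 CPM at 3 h (log2 fold change 1.17 ± 0.1, adjusted p = 7.1e-07). CDKN1A, which encodes the inhibitor p21, was at 196 and 190.4 CPM at 0 h and 422 and 379 CPM at 3 h (log2 fold change 1.05 ± 0.15, adjusted p = 5.8e-05). CDC25A, a phosphatase that activates CDK2, was at 9.19 and 9.29 CPM at 0 h and 15.4 and 18.4 CPM at 3 h (log2 fold change 0.88 ± 0.14, adjusted p = 0.00025). E2F2, by contrast, fell from 16.4 and 16.6 to 4.32 and 4.87 CPM (log2 fold change -1.84 ± 0.17, adjusted p = 1e-06) and CDKN2C, an inhibitor of CDK4 overlapped on the opposite strand over 20.4%, from 69.8 and 72.6 to 33.5 and 35.4 CPM (log2 fold change -1.04 ± 0.13, adjusted p = 2.5e-05). Genes of the start of the cycle were thus higher or lower gene by gene while those of its end were lower.

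Genes of ribosome biogenesis rose as uniformly as those of mitosis fell. Of 54 tested nucleolar and ribosome assembly genes, 51 were called higher and 0 lower, with a median log2 fold change of 0.84, and 46 to 48 were higher when any of the 4 libraries was left out. At an unadjusted p under 0.05 edgeR gave 52 higher and 0 lower, and DESeq2 called 52 higher and 0 lower. DDX21, a nucleolar RNA helicase, was at 139 and 156 CPM at 0 h and 463 and 429.9 CPM at 3 h (log2 fold change 1.59 ± 0.093, adjusted p = 1.6e-08). NOP16 was at 27 and 25.1 CPM at 0 h and 75.7 and 78.7 CPM at 3 h (log2 fold change 1.57 ± 0.11, adjusted p = 6.5e-08) and RRS1 at 23.3 and 26.5 CPM at 0 h and 76.5 and 69.4 CPM at 3 h (log2 fold change 1.54 ± 0.10, adjusted p = 3.9e-08). RRP12 was at 40.3 and 44.8 CPM at 0 h and 117 and 123 CPM at 3 h (log2 fold change 1.49 ± 0.088, adjusted p = 1.8e-08). All are factors of ribosome assembly. In all 4 genes the lower 3 h library was more than 2-fold above the higher 0 h library, which adds nothing to the large called rises they were named for. MYC, the factor best known for driving these genes, was at 165 and 184 CPM at 0 h and 217 and 194 CPM at 3 h and was not called (log2 fold change 0.23, adjusted p = 0.109), but was called with the 4 libraries alone (0.28, adjusted p = 0.0057). Within the MYC network MLX was at 29.4 and 32.5 CPM at 0 h and 51 and 53.7 CPM at 3 h (log2 fold change 0.76 ± 0.13, adjusted p = 0.00039) and MXD3, a repressor that competes with MYC for MAX and has an opposite-strand gene over 24.2% of its exonic bases, fell from 20.5 and 22.2 to 5.05 and 6.45 CPM (log2 fold change -1.88 ± 0.24, adjusted p = 3.2e-05). The E-box CACGTG, which MYC binds, was found in 4 of the 45 members with a promoter (8.89%), near the 6.49% of all promoters. The ETS site CCGGAAGT was found in 9 (20%), against 3.64% of all promoters and 6.83% of the 11036 tested genes with a promoter. The last share is no sound check, since too many of the tested genes had no promoter in the table.

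Stress and metabolic genes were called in both directions. Unfolded protein and heat shock genes were called higher in 11 of 29 cases and lower in 2, but only 5 to 8 were higher when any of the 4 libraries was left out. HSPH1, a cytosolic chaperone, was at 131 and 139.7 CPM at 0 h and 288 and 299.5 CPM at 3 h (log2 fold change 1.12 ± 0.083, adjusted p = 1.4e-07). HSPA8 was at 1059 and 1141 CPM at 0 h and 2101 and 2162 CPM at 3 h (log2 fold change 0.95 ± 0.13, adjusted p = 4e-05). The ATF4 and amino acid response had 7 of 28 called higher and 5 lower, but 2 to 3 lower without 0 h replicate 1 or either 3 h replicate. The 7 and 5 are 25% and 17.9% of the list, the latter near the share of all tested genes (15.5% higher and 16.1% lower). SLC7A11, the cystine transporter, was at 265 and 252 CPM at 0 h and 483 and 445 CPM at 3 h (log2 fold change 0.84 ± 0.18, adjusted p = 0.00252). PSPH, of serine synthesis, was at 53.8 and 47.2 CPM at 0 h and 32.6 and 34.2 CPM at 3 h (log2 fold change -0.59 ± 0.12, adjusted p = 0.00185). Of 28 genes of cholesterol and fatty acid synthesis, 6 were called higher (21.4%) and 4 lower (14.3%), near the 15.5% and 16.1% of all tested genes. HMGCS1, at the entry of the mevalonate pathway and overlapped on the opposite strand over 37.7% of its exonic bases, was at 419 and 405 CPM at 0 h and 797 and 827 CPM at 3 h (log2 fold change 0.98 ± 0.13, adjusted p = 3.4e-05). SREBF1, the factor for fatty acid genes, was lower at 285 and 272 CPM at 0 h and 162 and 167 CPM at 3 h (log2 fold change -0.76 ± 0.12, adjusted p = 0.00016). Of 28 genes of glycolysis and glucose uptake, 8 were called higher (28.6%, against 15.5% of all tested genes) and 6 lower (21.4%, against 16.1%). HK2, the inducible hexokinase, was at 111 and 110.2 CPM at 0 h and 313 and 298 CPM at 3 h (log2 fold change 1.46 ± 0.11, adjusted p = 2.3e-07). PFKFB4 was at 15.3 and 16.2 CPM at 0 h and 6.11 and 8.15 CPM at 3 h (log2 fold change -1.12 ± 0.19, adjusted p = 0.00031).

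Apoptosis regulators were called higher in 11 of 39 cases and lower in 11, and when any of the 4 libraries was left out 5 to 7 were higher and 5 to 8 lower. Each 11 is 28.2% of the list, against 15.5% of all tested genes called higher and 16.1% called lower. Survival proteins were among both the falls and the rises. BIRC5 was called lower, a call that was lost without 3 h replicate 1 (log2 fold change -0.51 there). BCL2L1, which encodes BCL-XL, rose and was at 246 and 260.3 CPM at 0 h and 639.8 and 640.3 CPM at 3 h (log2 fold change 1.34 ± 0.11, adjusted p = 3.4e-07), with a gene on the opposite strand over 41.3% of its exonic bases. TNFRSF10A, a receptor of TRAIL, also rose, from 22.1 and 22.2 to 63.9 and 66.8 CPM (log2 fold change 1.56 ± 0.092, adjusted p = 1.8e-08), whereas its ligand TNFSF10 fell. CASP10, an initiator caspase, fell from 46.2 and 44.9 to 22.7 and 26.6 CPM (log2 fold change -0.88 ± 0.13, adjusted p = 9.3e-05). Targets of p53 were split, with 8 of 26 called higher (30.8%, against 15.5% of all tested genes) and 11 lower (42.3%, against 16.1%). AEN, a nuclease, was at 26.7 and 27.8 CPM at 0 h and 80.3 and 72.8 CPM at 3 h (log2 fold change 1.49 ± 0.11, adjusted p = 1.5e-07). MDM2, the ubiquitin ligase of p53, was at 64.1 and 65 CPM at 0 h and 42.2 and 41.9 CPM at 3 h (log2 fold change -0.62 ± 0.11, adjusted p = 0.00055). DDB2, of DNA repair, was at 35.3 and 32.5 CPM at 0 h and 19.9 and 22.6 CPM at 3 h (log2 fold change -0.67 ± 0.1, adjusted p = 0.00013). Interferon-stimulated genes were called lower in 18 of 49 cases and higher in 1, with a median of -0.26. Without 0 h replicate 1 the number lower was 11 and without 3 h replicate 2 it was 12. IRF1, an interferon regulatory factor overlapped on the opposite strand over 22.9% of its exonic bases, was at 75.3 and 63.3 CPM at 0 h and 35.7 and 37 CPM at 3 h (log2 fold change -0.93 ± 0.12, adjusted p = 4.3e-05). IFIT2 was at 202 and 156 CPM at 0 h and 101 and 94 CPM at 3 h (log2 fold change -0.87 ± 0.16, adjusted p = 0.00087). The 0 h libraries of IFIT2 were the farther apart. Of 18 tested genes of STAT3 and the interleukin 6 family, 6 were called higher and 0 lower by edgeR, and 1 to 3 were higher when any of the 4 libraries was left out. At an unadjusted p under 0.05 there were 6 higher and 1 lower, and DESeq2 called 6 higher and 0 lower. LIFR, the receptor of LIF, was at 49.3 and 44.8 CPM at 0 h and 74.2 and 71.5 CPM at 3 h (log2 fold change 0.63 ± 0.12, adjusted p = 0.00091).

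Notch, TGF-beta and BMP genes were called lower in 10 of 27 cases and higher in 6, with 6 lower without 0 h replicate 2 or 3 h replicate 2. With all libraries 37% of this list were lower and 22.2% higher, against 16.1% and 15.5% of all tested genes. LFNG, which modifies Notch receptors, was at 51.7 and 48 CPM at 0 h and 20.7 and 23.7 CPM at 3 h (log2 fold change -1.16 ± 0.13, adjusted p = 7.6e-06), and GDF15, a stress cytokine, rose from 45 and 45.8 to 99.8 and 88.5 CPM (log2 fold change 1.05 ± 0.13, adjusted p = 2.5e-05). Eph, semaphorin and guidance genes were called higher in 11 of 29 cases and lower in 6, with 3 lower without 0 h replicate 1. With all libraries 37.9% of the guidance list were higher and 20.7% lower. SEMA7A was at 1.63 and 1.39 CPM at 0 h and 11.2 and 10.9 CPM at 3 h (log2 fold change 2.88 ± 0.2, adjusted p = 8.4e-08). NRP2, a semaphorin receptor, was at 9.97 and 8.84 CPM at 0 h and 36.6 and 38.5 CPM at 3 h (log2 fold change 2.005 ± 0.16, adjusted p = 2.6e-07). EPHA2, a receptor of ephrin A ligands, was at 347 and 375 CPM at 0 h and 1198 and 1164 CPM at 3 h (log2 fold change 1.71 ± 0.094, adjusted p = 1e-08), and its ligand EFNA1 moved the other way, at 53.9 and 43.9 CPM at 0 h and 18.7 and 24.3 CPM at 3 h (log2 fold change -1.17 ± 0.14, adjusted p = 1.9e-05). EPHB3 was lower as well, at 79.98 and 78.5 CPM at 0 h and 24.4 and 29.3 CPM at 3 h (log2 fold change -1.56 ± 0.12, adjusted p = 2.2e-07). Circadian genes were called lower in 8 of 19 cases (42.1%) and higher in 4 (21.1%). DBP, the output factor of the clock, was at 40.1 and 40.2 CPM at 0 h and 11.7 and 10.4 CPM at 3 h (log2 fold change -1.87 ± 0.12, adjusted p = 5.6e-08). BHLHE41 was at 8.34 and 8.89 CPM at 0 h and 2.44 and 2.55 CPM at 3 h (log2 fold change -1.78 ± 0.22, adjusted p = 1.6e-05). CRY1, a repressor of the clock, was higher, at 7.5 and 6.71 CPM at 0 h and 15.6 and 14.1 CPM at 3 h (log2 fold change 1.06 ± 0.14, adjusted p = 2.6e-05).

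**Figure D3:**
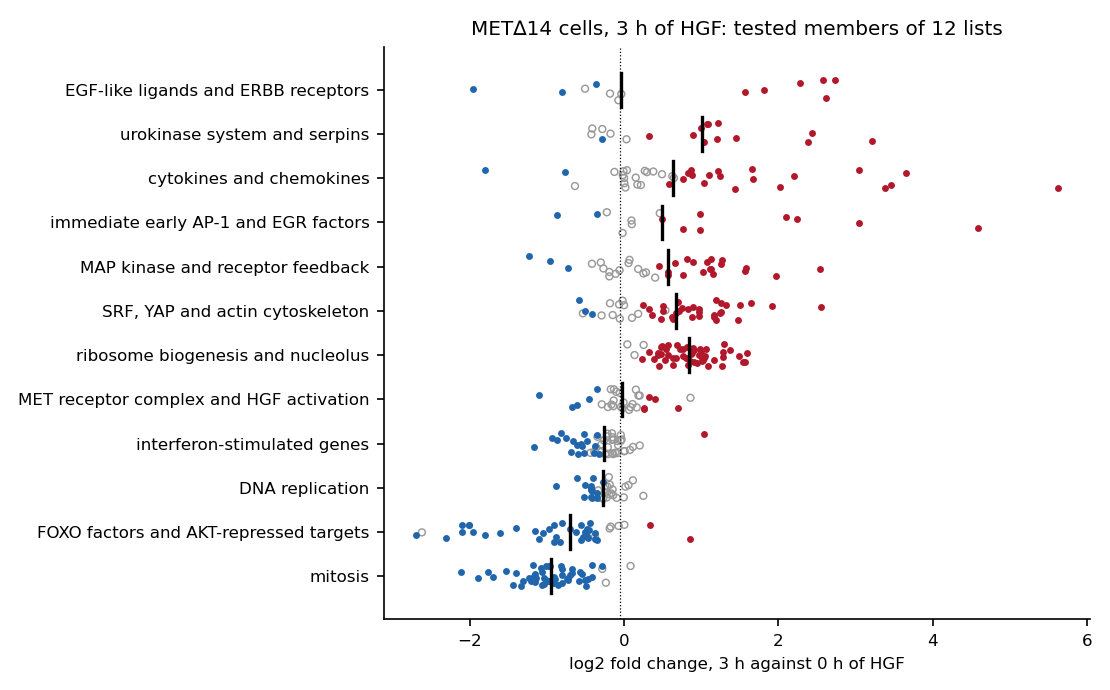
log2 fold change at 3 h of HGF in cells expressing MET∆14 for each tested member of 12 gene lists, with red points called higher, blue points called lower and open points not called. Black bars are list medians, from 1.01 for the urokinase system and serpins to -0.94 for mitosis, and the dotted line is the median of all tested genes at -0.053.

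Some genes rose from near absence. Among 598 tested genes with at most 3 counts in each 0 h library, 21 were called higher, against 15.5% of all tested genes. Such genes passed the filter on low counts only through other libraries, those at 3 h among them. A lower call was hardly possible for them, so that the direction of these calls is no result. IL24, a cytokine of the interleukin 10 family, was at 0 and 0.0497 CPM at 0 h and 2.12 and 1.47 CPM at 3 h and had a gene on the opposite strand over 41.6% of its exonic bases. ARHGAP40, a GTPase-activating protein, was at 0 and 0.0497 CPM at 0 h and 0.814 and 0.962 CPM at 3 h. ACTG2, the enteric smooth muscle actin, was at 0.0652 and 0.0497 CPM at 0 h and 0.896 and 0.736 CPM at 3 h, and DAW1, a protein of cilia, at 0.13 and 0.0993 CPM at 0 h and 0.896 and 0.792 CPM at 3 h. KRTAP2-3, a hair keratin-associated protein, was at 0 and 0.0993 CPM at 0 h and 0.733 and 0.623 CPM at 3 h, and AC026410.3 at 0.196 and 0.0993 CPM at 0 h and 0.814 and 0.623 CPM at 3 h. These 6 had the highest 3 h levels of the 21, and all remained below 3 CPM. The calls of the last 2 were lost when single libraries were left out, with adjusted p of 0.0612 to 0.121 for KRTAP2-3 (0 h replicate 1 and either 3 h replicate) and of 0.0643 and 0.12 for AC026410.3 (3 h replicate 1 and 0 h replicate 2). Their fitted fold changes depend on the prior count and are not given.

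The response was then compared with that of the wt MET line over the same 3 h, by a test of the difference of the 2 responses in the same fit. The response was higher with MET∆14 in 1345 of 15067 genes (8.93%) and lower in 1276 (8.47%). Without 0 h replicate 1 or 3 h replicate 1 of MET∆14, or 3 h replicate 1 of wt MET, the first number was 830, 893 or 879, and with the 8 compared libraries alone it was 2116. A difference between these lines is not a difference between forms of MET, since 1 line stands for each. Of the ribosome biogenesis genes, 43 of 54 responded higher in MET∆14. DDX21 was at 916 and 989 CPM and 1049 and 1164 CPM in the wt MET libraries at 0 and 3 h, a response of 0.22 against 1.59 (difference 1.38, SE 0.13, adjusted p = 3.9e-06). SRF, YAP and actin genes responded higher in 22 of 45 cases and lower in 1. FHL2 had a response of -0.11 in wt MET (difference 1.76, adjusted p = 1.8e-07). Mitosis genes responded lower in 27 of 54 cases, and FOXO targets lower in 18 of 41 and higher in 1. FBXO32 was at 13.1 and 16 CPM at 0 h and 9.21 and 8.81 CPM at 3 h in wt MET (difference -2.01, SE 0.22, adjusted p = 1.9e-05), and PIK3IP1 at only 1.59 and 1.41 CPM at 0 h and 1.74 and 2.42 CPM at 3 h (difference -2.75, adjusted p = 1.7e-05).

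The largest positive differences, among genes whose mean log2 CPM reached 3 in both lines, were those of CITED4, GPAT3, LIF, RGS2 and NRG1. GPAT3 was at 83.7 and 76.4 CPM at 0 h and 79.1 and 75.4 CPM at 3 h in wt MET, and its difference was 2.72 (SE 0.13, adjusted p = 5.2e-09). RGS2, which inactivates G proteins, was at 19.2 and 23.3 CPM at 0 h and 101 and 88 CPM at 3 h with MET∆14 and at 22.2 and 29.1 CPM at 0 h and 19 and 22 CPM at 3 h with wt MET. NRG1 rose with MET∆14 and was at 208 and 190.0 CPM at 0 h and 177 and 178 CPM at 3 h with wt MET (difference 2.45, adjusted p = 5.4e-08). The largest negative differences among the same genes were those of EGR1, FOS, FOSB, JUNB and NR4A2. EGR3, at lower levels, had a difference of -5.65 (adjusted p = 3.5e-07). FOS was at 7.38 and 10.9 CPM at 0 h and 166 and 171 CPM at 3 h with wt MET, whereas it was not called with MET∆14 (difference -4.43, SE 0.19, adjusted p = 4.9e-09). EGR1 was at 55.9 and 118 CPM at 0 h and 2203 and 2362 CPM at 3 h with wt MET, and its 0 h libraries lay more than 2-fold apart there. JUNB was at 57.9 and 57.8 CPM at 0 h and 827 and 898 CPM at 3 h with wt MET (difference -3.8, adjusted p = 4.9e-09). Over the whole list of AP-1 and EGR factors, 9 of 15 responded lower in MET∆14 and 2 higher, FOSL1 being one of the latter (difference 1.79, adjusted p = 2.2e-05). CXCL8 rose in both lines, by 3.04 with wt MET, and its difference of 0.62 (SE 0.34) was not called (adjusted p = 0.259).

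**Figure D4:**
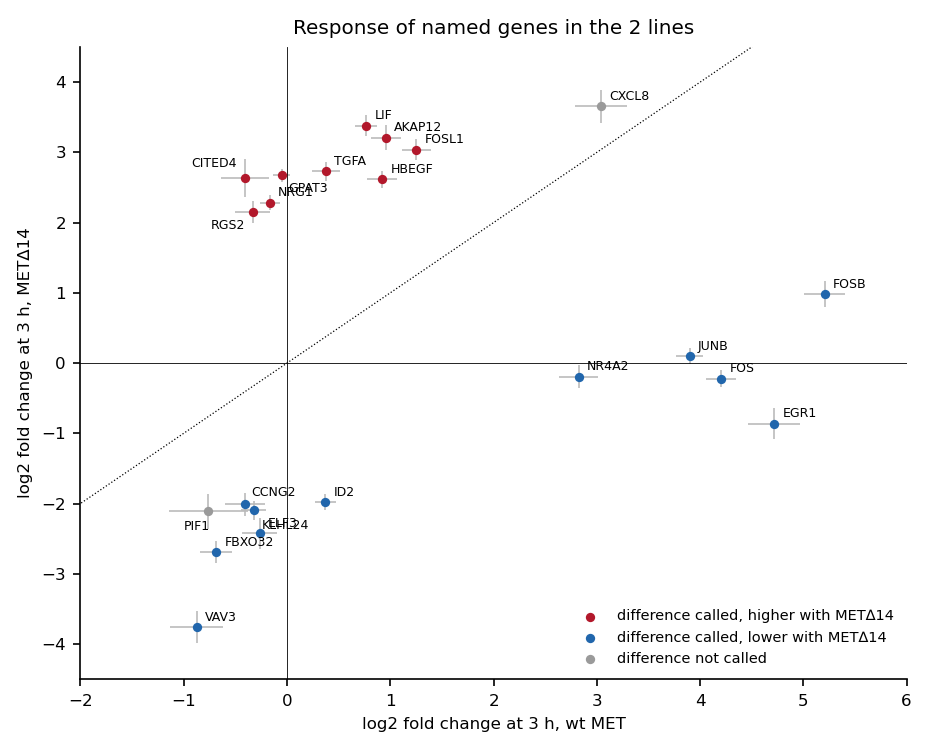
log2 fold change at 3 h of HGF with wt MET (x axis) and with MET∆14 (y axis) for genes named for their rise, fall or difference whose mean log2 CPM reached 1 in wt MET, with bars of 1 SE and a dotted line of equal response. GPAT3 and NRG1 lie near 0 for wt MET and at 2.67 and 2.28 for MET∆14, while FOS, JUNB and EGR1 lie at 4.2, 3.9 and 4.72 for wt MET and between -0.86 and 0.10 for MET∆14.

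The later MET∆14 libraries show how long the 3 h levels lasted, as values of 2 libraries at 6 h and 2 at 12 h, with no test. LIF had come down to 10.03 and 11.5 CPM at 6 h and was at 6.3 and 4.08 CPM at 12 h, around its 0 h level of 4.56 and 4.67 CPM. MAFF was at 43.5 and 47.4 CPM at 6 h, between its 0 and 3 h levels. CXCL8 was at 151 and 166 CPM at 6 h and 31 and 55.2 CPM at 12 h. TGFA was higher at 6 h (358 and 404 CPM) than at 3 h, and lower at 12 h (169.9 and 212 CPM). SERPINB2 took the same course, with 894 and 1140.2 CPM at 6 h and 239 and 404 CPM at 12 h. DDX21 was at 523 and 527 CPM at 6 h and 304 and 317 CPM at 12 h. Among the falls, FBXO32 stayed low, at 2.4 and 2.61 CPM at 6 h and 3.17 and 3.62 CPM at 12 h, as did VAV3, at 1.5 and 1.59 CPM at 6 h and 5.75 and 6.12 CPM at 12 h. ASPM was at 90.8 and 98.5 CPM at 6 h and 173 and 119 CPM at 12 h, so that its lowest libraries were those of 3 h. EFNA1 was at 55.1 and 63.6 CPM at 12 h, above both 0 h libraries.

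**Figure D5:**
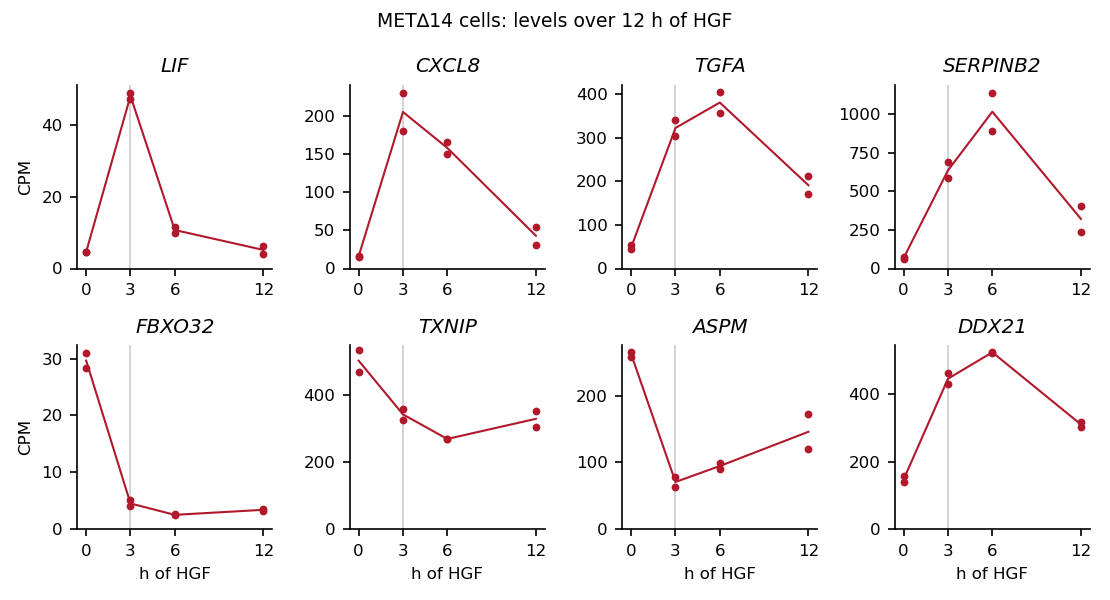
CPM of 8 named genes in the MET∆14 libraries at 0, 3, 6 and 12 h of HGF, with 1 point per library and lines through the means, on axes that start at 0. LIF peaks at 3 h (49.2 and 47.3 CPM), TGFA, SERPINB2 and DDX21 are highest at 6 h, and FBXO32 stays below 6 CPM from 3 h on.

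The genes that the study measured by RT-qPCR were also read, a list that is not independent of these samples. Of 19 tested members 6 were called higher and 5 lower at 3 h. The 5 genes called lower were all cell cycle genes. TOP2A, a topoisomerase of mitotic chromosomes, was at 391 and 402 CPM at 0 h and 187 and 200.3 CPM at 3 h (log2 fold change -1.03 ± 0.079, adjusted p = 1.9e-07). AURKA, the centrosomal mitotic kinase, was at 180.4 and 183 CPM at 0 h and 82.2 and 97.2 CPM at 3 h (log2 fold change -1.02 ± 0.10, adjusted p = 1.3e-06), and CCNA2, cyclin A2, at 69.2 and 73.1 CPM at 0 h and 32.8 and 39.7 CPM at 3 h (log2 fold change -0.97 ± 0.13, adjusted p = 3.3e-05). AURKB was at 36.6 and 38.6 CPM at 0 h and 21.4 and 24.9 CPM at 3 h (log2 fold change -0.7 ± 0.15, adjusted p = 0.00277). CDC45, of the replication fork, was at 28.4 and 29.6 CPM at 0 h and 21.6 and 21.6 CPM at 3 h (log2 fold change -0.43 ± 0.12, adjusted p = 0.0102), and its call was lost without 0 h replicate 2 (adjusted p = 0.0857), 3 h replicate 1 (0.0668) or 3 h replicate 2 (0.0643). TJP1, which encodes the tight junction scaffold ZO-1, was higher, at 94.7 and 102 CPM at 0 h and 141 and 129.7 CPM at 3 h (log2 fold change 0.46 ± 0.1, adjusted p = 0.00346). ATF3, a stress-induced factor, was at 51.6 and 45 CPM at 0 h and 79.1 and 57.2 CPM at 3 h (log2 fold change 0.49 ± 0.17, adjusted p = 0.0364), a call that was lost without 0 h replicate 1 (0.59, adjusted p = 0.0665), 0 h replicate 2 (0.40, adjusted p = 0.217) or 3 h replicate 1 (0.25, adjusted p = 0.379). DDIT3, the stress factor CHOP, was at 47.5 and 38 CPM at 0 h and 38.7 and 28 CPM at 3 h and was not called (log2 fold change -0.37, adjusted p = 0.0586), but was called lower without 0 h replicate 2 (-0.52, adjusted p = 0.0331) or 3 h replicate 1 (-0.60, adjusted p = 0.0108), with the block (-0.37, adjusted p = 0.0486) and under both other filters on low counts (adjusted p = 0.0123 and 0.043). GADD45A, a p53 and stress target, was at 94.5 and 96 CPM at 0 h and 127 and 115 CPM at 3 h (log2 fold change 0.35 ± 0.089, adjusted p = 0.00736), a call lost without 0 h replicate 1 (0.34, adjusted p = 0.0616) or 3 h replicate 1 (0.28, adjusted p = 0.0974). E2F1, a cell cycle factor, was at 70.8 and 78.1 CPM at 0 h and 57.2 and 60.6 CPM at 3 h and was not called (log2 fold change -0.34, adjusted p = 0.0575), but was called lower without the filter on low counts (-0.33, adjusted p = 0.0286), with the replicate number as a block (-0.34, adjusted p = 0.0407) and with the 4 libraries alone (-0.29, adjusted p = 0.00273). CD14, TBP, MMP1, TIMP3, CDH1 and MET were not called either, and CD14, the co-receptor for lipopolysaccharide, was at 22.2 and 21.8 CPM at 0 h and 19.9 and 19.1 CPM at 3 h.

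Calls were fewer among short genes. The median length of the longest annotated transcript was 4050 bases for genes called higher, 4316 for genes called lower and 3661 for all tested genes (GENCODE v44), with median GC contents of 46.67%, 47.76% and 48.32%. Over 5 bins of genes by length, the median log2 fold change went from 0.0061 in the shortest to -0.0956 in the longest. In the bin of shortest genes 9.06% were called higher and 7.64% lower, against 16.7% and 20.3% in that of the longest. Most tested genes were protein coding (13900 of 15067), and so were most called genes (2281 of 2339 higher and 2333 of 2430 lower). Of 12 tested long noncoding RNA genes, 1 was higher and 1 lower.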

How the data were processed

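PolyA RNA of serum-deprived cells was sequenced from TrueSeq libraries. According to the submitters' processing notes and the study, STAR 2.5.0, RSEM 1.3.2 and hg38 were used by the authors, and the deposited values are whole-number counts per gene, which may be rounded RSEM estimates. Per the study's methods, adapters were trimmed and reads mapped with STAR on hg38. How genes were counted, with which annotation, and whether strand was used is not given in the sources used here. The deposited counts had been filtered or normalized by no stated step. Samples were grouped by the labels. Members and gene lists were chosen with earlier results of these data known. Counts of 42351 genes, of which 19306 had no count in any library, were analysed with edgeR 4.0.16 (R 4.3.3): filterByExpr with a minimum count of 10 and total of 15 left 15067 genes (99.958% of counts), TMM normalization and robust quasi-likelihood F tests were used with 1 coefficient per line and time over all 16 libraries, with the Benjamini-Hochberg adjustment and a threshold of 0.05. P-values rest on a spread between replicates that was estimated over all 16 libraries, and this spread may be technical in part. The genes named were the 10 largest rises and falls whose mean log2 CPM reached 3, in each list up to 4 rises and 4 falls whose mean log2 CPM reached 1 and the heads of pathways, the 6 with the highest CPM at 3 h among those rising from at most 3 counts, the 5 largest differences between lines in each direction, and genes of the study's RT-qPCR; of these not all are printed. Promoters were read from RefSeq (GRCh38.p14), and positions and exon overlaps from GENCODE v44, which held 15041 of the tested genes. Alternatives were DESeq2 1.42.0 (size factors, and its Wald test), other filters, a fold threshold, fewer libraries, a replicate block and leaving out each library. On simulated data with 200 genes changed by 2-fold, 89.5% were recovered with 10 false calls among 14855 genes. For the difference between lines 68.5% were recovered with 5 false calls. The changed genes were drawn from well measured genes alone and were far fewer than the genes called in the data. Some results are not reported here.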

Additional observations from a re-analysis of the deposited data

Results flagged for a closer look

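The response at 3 h of HGF differed between the lines, by the test of the difference in edgeR's fit, for 21 of the genes named for the largest rises, falls or differences. Other genes named as members of a list, such as DDX21 and FHL2, also passed this test and stand in the report. Differences are given as the log2 fold change with MET∆14 minus that with wt MET. The response was higher with MET∆14 for CITED4 (3.04), GPAT3 (2.72), LIF (2.62), RGS2 (2.48), NRG1 (2.45), TGFA (2.35), AKAP12 (2.26), FOSL1 (1.79) and HBEGF (1.70). It was lower with MET∆14 for EGR1 (-5.58), FOS (-4.43), FOSB (-4.22), JUNB (-3.80), NR4A2 (-3.02), VAV3 (-2.89), PIK3IP1 (-2.75), ID2 (-2.35), ELF3 (-2.16), FBXO32 (-2.01), KLHL24 (-1.78) and CCNG2 (-1.60). Groups of 2 libraries were too small for a search for single outlying libraries.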

How the results depend on the processing

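With 2 libraries a group, counts of calls moved with the fit more than directions did. Called changes with an absolute log2 fold change of at least 1 were 520 higher and 581 lower, and 409 and 445 for the difference between lines. With the compared libraries alone, 3731 genes were higher, and 2116 had a higher response with MET∆14. Leaving out 1 of the 4 MET∆14 libraries gave 1599 to 1809 higher and 1322 to 1554 lower. Leaving out 1 of the 8 libraries of both lines gave 830 to 1185 genes with a higher and 862 to 1129 with a lower response. Without 1 wt MET library at 0 or 3 h, 4545 to 4940 genes were called at 3 h in MET∆14. DESeq2's Wald test gave 2336 higher and 1957 lower, and 4158 of the 4769 called genes (87.19%) were called the same way. Under the alternatives run, no called gene among those the rules name changed its direction, while CDH1, TBP and TIMP3, which were not called, and the uncalled differences between lines of GJB2 and SERPINB2, lay on either side of 0. Same-numbered libraries did not deviate together (correlation of 0.0229 between 0 and 3 h). This cannot exclude that they were handled as pairs, which the labels do not state. The replicate block gave 2198 higher and 2199 lower, and 1171 and 1115 for the difference. At these depths a gene with at most 3 counts in each 0 h library gives no fold change.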
